A study of Mus musculus with 12 samples.

Results

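The regions described here are the parts of the mouse genome that lay in lamina-associated domains (LADs) in Rif1-depleted 4-cell embryos and in none of the other groups of the study. Each autosome was divided into 100-kb bins over the span between its outermost LADs in the 4 lists together, which gave 23849 bins on chromosomes 1 to 19. A bin was taken when it was LAD in siRif1 4-cell embryos and outside LADs in siControl 4-cell, siControl 8-cell and siRif1 8-cell embryos. The rule found 781 bins (78.1 Mb, percent called 3.27%), which form 270 uninterrupted stretches. They hold the midpoints of 373 of 20144 protein-coding genes (percent called 1.85%). The bins were thus selected on their LAD state in the 4 lists, which is given as a description, whereas genes, promoters and chromosome position were not used to choose them.

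Embryos were (C57BL/6J xCBA) x DBA/2J crosses in all groups, injected as zygotes with 20 µM of a control siRNA (siControl) or an siRNA against Rif1 (siRif1) 17 to 18 h after hCG. All groups, controls included, also received Tir1, a membrane eGFP and the fusion AID-Dam-LaminB1 at the late 2-cell stage, and auxin, which removes the degron-tagged fusion until it is washed out. Auxin was removed at 54 h and embryos were collected at 60 to 62 h for the 4-cell groups. For the 8-cell groups the times were 66 h and 72 to 74 h. Each group had 3 replicates of 16 to 24 pooled blastomeres, from 4 to 6 embryos at the 4-cell stage or 2 to 3 at the 8-cell stage. The deposited LADs are 1 list per group made from all of its replicates, so no replicate spread, read depth or p-value can be given, and the lists hold no RNA with which to check the knockdown or the cells. LADs covered 32.9% of the bins in siControl 4-cell embryos, the least of the groups, against 43.5% in siRif1 4-cell, 44.7% in siControl 8-cell and 42.9% in siRif1 8-cell embryos. Rif1 lay outside LADs in all 4 lists, and the gene for lamin B1, Lmnb1, was LAD in siControl 4-cell embryos alone.

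LADs are long stretches of chromatin that touch the protein meshwork under the inner nuclear membrane, and they are mostly poor in genes, late in replication and weakly transcribed. In DamID the bacterial methylase Dam, fused to a lamina protein, marks adenines in the sequence GATC that come near the lamina, and the marked fragments are sequenced. Rif1 is a chromatin protein that recruits protein phosphatase 1 to late-replicating domains and delays their origins. In mouse preimplantation development, LADs are set up after fertilisation and are rearranged over the cleavage stages.

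The promoters of 6 developmental genes in these bins are shown as examples, because the results on early lineage and germ layer genes turn on them. Nr5a2 and Zfp42 belong to the list of pluripotency and inner cell mass genes, Pdgfra to the primitive endoderm genes, and Lhx2, Nkx2-1 and Myf5 to the regulators of germ layers, nervous system and muscle. The 250 bases upstream of a transcription start are printed 5′ to 3′ on the gene's strand (RefSeq, GRCm38.p6; the start used for Pdgfra, Lhx2 and Myf5 lies inside the annotated gene), with each GATC, the sequence that Dam can methylate, in capitals. GATC reads the same on both strands.
Nr5a2 (chr1:136960449-136960698, minus strand): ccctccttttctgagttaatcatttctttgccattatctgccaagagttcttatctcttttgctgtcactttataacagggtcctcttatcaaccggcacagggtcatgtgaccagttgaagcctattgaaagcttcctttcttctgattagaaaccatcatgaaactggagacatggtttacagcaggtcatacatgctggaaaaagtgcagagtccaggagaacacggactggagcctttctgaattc
Zfp42 (chr8:43307010-43307259, minus strand): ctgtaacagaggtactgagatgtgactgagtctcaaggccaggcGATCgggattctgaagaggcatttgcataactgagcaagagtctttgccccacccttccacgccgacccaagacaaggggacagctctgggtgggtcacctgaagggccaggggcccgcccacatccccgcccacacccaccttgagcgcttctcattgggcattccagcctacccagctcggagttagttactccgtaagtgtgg
Pdgfra (chr5:75152001-75152250, plus strand): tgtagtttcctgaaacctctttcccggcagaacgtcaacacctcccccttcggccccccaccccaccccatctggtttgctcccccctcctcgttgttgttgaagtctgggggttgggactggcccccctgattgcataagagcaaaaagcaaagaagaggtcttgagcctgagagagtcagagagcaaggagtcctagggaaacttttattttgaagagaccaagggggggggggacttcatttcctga
Lhx2 (chr2:38339031-38339280, plus strand): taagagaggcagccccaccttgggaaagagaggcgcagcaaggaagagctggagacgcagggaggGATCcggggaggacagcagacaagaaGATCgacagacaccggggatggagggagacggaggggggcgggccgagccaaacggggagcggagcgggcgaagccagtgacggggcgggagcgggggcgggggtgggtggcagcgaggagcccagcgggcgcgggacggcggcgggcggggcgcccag
Nkx2-1 (chr12:56536909-56537158, minus strand): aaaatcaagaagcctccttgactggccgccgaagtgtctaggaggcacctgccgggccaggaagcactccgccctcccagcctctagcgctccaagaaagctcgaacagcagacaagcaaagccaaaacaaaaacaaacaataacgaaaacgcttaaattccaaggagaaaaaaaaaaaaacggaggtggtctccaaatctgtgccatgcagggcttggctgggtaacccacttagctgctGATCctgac
Myf5 (chr10:107486135-107486384, minus strand): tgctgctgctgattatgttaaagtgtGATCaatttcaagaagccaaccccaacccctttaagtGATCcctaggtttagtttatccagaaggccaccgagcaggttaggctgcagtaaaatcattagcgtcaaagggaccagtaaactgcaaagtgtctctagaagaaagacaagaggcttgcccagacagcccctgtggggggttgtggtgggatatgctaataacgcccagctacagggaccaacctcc

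These 6 promoters differ widely in base composition. Lhx2 had 72.8% G and C and 25 CpG dinucleotides in the 250 bases, whereas Nr5a2 had 43.2% and 2. GATC occurred 2 times upstream of Lhx2 and of Myf5, 1 time upstream of Zfp42 and of Nkx2-1, and 0 times upstream of Nr5a2 and of Pdgfra. A promoter sequence was given for 282 of the 373 genes, and 131 of these (46.5%) held at least 1 GATC in the 250 bases, compared with 6537 of 16123 (40.5%) over all protein-coding genes of the span with a sequence. With the 50 bases after the start included, the shares were 50.4% and 46.3%. The share was 50.8% in the other bins LAD in siRif1 and not siControl 4-cell embryos, which were LAD at the 8-cell stage. In bins LAD in siControl 4-cell alone it was 41.9%. The higher share is thus not particular to these bins. A promoter without the letters can still lie between marked sites, so these counts describe the sequence and not the contact.

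Both early lineage genes of the first list were at the rim of a siRif1 4-cell LAD. Nr5a2, an orphan nuclear receptor that acts in zygotic genome activation and pluripotency (chromosome 1, 136842562 to 136960448), had 51.3% of its length in siRif1 4-cell LADs and 0% in each of the other 3 lists. The LAD began inside the gene, at 136900001, and the nearby Zfp281 was outside LADs in all lists. The stretch is a single bin, and the bin that follows it was LAD in all lists but siControl 8-cell. A siControl 4-cell LAD thus adjoined the stretch of Nr5a2. Zfp42, which encodes the stem cell marker Rex1 (chromosome 8, 43295067 to 43307009), had 58.7% of its length in siRif1 4-cell LADs and 0% in the others. Here too a border crossed the gene: Triml1 and Triml2 on one side were LAD in no list, and Adam26a on the other was LAD in siRif1 4-cell and both 8-cell lists. These were 2 of the 21 genes of this list, and no other gene of it was LAD in siRif1 and outside siControl LADs at the 4-cell stage.

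Pdgfra, a receptor tyrosine kinase of the primitive endoderm, and Dab2, an endocytic adaptor of the same lineage, were the 2 of 14 primitive endoderm genes in these bins. Pdgfra (chromosome 5, 75151322 to 75198206) lay wholly in siRif1 4-cell LADs and had 0% of its length in LADs of the other 3 lists. The stretch that holds it is a single bin, and a stretch of 0.5 Mb beginning at 75300001 follows within the same siRif1 4-cell LAD. The bin between the 2 stretches was LAD in both 4-cell lists, so each of them adjoined a siControl 4-cell LAD. That second stretch holds Kit (75574987 to 75656722), the receptor for stem cell factor, also at 100% in siRif1 4-cell LADs and 0% elsewhere. Next to them, Gsx2 and Chic2 were LAD in no list and Kdr, a receptor for vascular endothelial growth factor, was LAD in siControl 8-cell embryos alone, so the 3 neighbouring receptor genes did not share a state. Kit and the neighbours named here were chosen after their values were seen. Dab2 (chromosome 15, 6299788 to 6440715) had 100% of its length in siRif1 4-cell and 0.151% in siControl 8-cell LADs, and its promoter lay just outside the stretch, in a bin that was also LAD in siControl 8-cell embryos. The stretch of Dab2 spanned 0.5 Mb and also held Fyb, Rictor and C9.

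Of the 28 regulators of germ layers, nervous system and muscle, 3 were in the bins, each wholly inside its siRif1 4-cell LAD and with 0% of its length in LADs of the other lists. Lhx2, a LIM homeobox regulator of forebrain and eye (chromosome 2, 38339271 to 38369737), was the only protein-coding gene of a 0.3-Mb stretch at the end of its LAD. Nkx2-1, the homeobox regulator of thyroid, lung and ventral forebrain (chromosome 12, 56531935 to 56536908), shared a 0.4-Mb stretch with Nkx2-9 and the paired box gene Pax9. The bins that adjoin this stretch were of opposite kinds: on one side the bin was LAD in all lists but siControl 4-cell, and on the other in siControl 4-cell embryos alone. Slc25a21 crosses that second border, with its midpoint in the siControl 4-cell LAD. Myf5, a muscle determination factor (chromosome 10, 107482908 to 107486927), shared a 0.3-Mb stretch with its paralogue Myf6 and with Lin7a, while Ptprq next to them was LAD in siRif1 4-cell and both 8-cell lists. Nkx2-9, Pax9, Slc25a21, Myf6, Lin7a and Ptprq were chosen after their values were seen.

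Of 38 genes known for activity when the zygotic genome is switched on, Duxf3 and Gm6763 were in the bins. Duxf3, of the Dux family of double homeobox activators of the 2-cell programme (chromosome 10, 58229505 to 58233089), lay wholly in a 0.6-Mb stretch together with Lims1, Ccdc138, Edar, Gcc2 and Ranbp2. Dux genes lie in near-identical repeated copies that share reads, so the state of this locus is uncertain. Gm6763 lay in a single bin of chromosome 10 (104100001 to 104200000) with 7 protein-coding genes, each 2.44 to 2.48 kb long. The promoters given for its neighbours in this bin all had 47.0% G and C. These genes may be repeated copies as well, so the state of Gm6763 is also uncertain. None of 15 trophectoderm genes, 39 Hox genes, 35 imprinted genes, 16 genes of the nuclear lamina and envelope, 77 ribosomal protein genes or 6 genes of Rif1 and protein phosphatase 1 was in the bins. Over all protein-coding genes the percent called by the same rule was 1.85% (373 of 20144). Counts of a few genes in lists this short are given as they stand, and none is called particular to its list.

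Several transcription factor genes stood in stretches with few other genes. Of 89 genes of the Sox, T-box, forkhead, Irx and Pou families, 5 (5.62%) were in the bins, among them Sox4, Tbx2, Tbx4 and Foxd4. Over all protein-coding genes the percent called was 1.85%. In the same list 41 genes were LAD in no list and 8 in siControl 4-cell embryos alone, and the count is not called particular to the list. Sox4 (chromosome 13, 28948919 to 28953699) was the only protein-coding gene of its 0.3-Mb stretch. Tbx2 and Tbx4, T-box regulators of limb, heart and lung, shared a 0.4-Mb stretch of chromosome 11 (85800001 to 86200000) with Brip1. Foxd4 had 51.0% of its length in siRif1 4-cell LADs and Sox4, Tbx2 and Tbx4 had 100%. These 4 genes had 0% in the remaining lists. Mecom, an oncogenic zinc finger regulator counted with the chromatin silencing genes (1 of 25), had 98.3% of its 558 kb in siRif1 4-cell LADs, 1.75% in siControl 4-cell LADs and 0% in both 8-cell lists. Its stretch (chromosome 3, 29600001 to 30500000) had siControl 4-cell LADs at both ends. The transcription start of Mecom lay just outside the stretch, in a bin that was LAD in siControl 4-cell embryos alone.

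Neuronal and channel lists held between 0 and 3 genes each, and such counts do not stand apart from the 1.85% over all protein-coding genes. Nlgn1, a postsynaptic adhesion gene, was the 1 of 46 long neuronal and adhesion genes placed here, although 10 of the list had moved into LADs between the siControl and siRif1 lists of the 4-cell stage (over all protein-coding genes 1484 of 20144, percent called 7.37%). The others of those 10 were LAD in an 8-cell list as well. Over all protein-coding genes, 373 of the 1484 gains were in the bins and the rest were LAD in an 8-cell list. Nlgn1 spans 911 kb, of which 8.58% was in LADs of siControl 4-cell, 63.5% of siRif1 4-cell, 0% of siControl 8-cell and 12.2% of siRif1 8-cell embryos. Pcdh10, a non-clustered protocadherin (1 of 10), stood alone in a 0.5-Mb stretch of chromosome 3 that was a whole siRif1 4-cell LAD with no LAD of any list in the bin on either side. Of 88 potassium channel subunit genes, Kcna5, Kcnip1 and Kcnmb1 were in the bins, the last 2 in the same 0.5-Mb stretch of chromosome 11 (33600001 to 34100000), and of 36 sodium and calcium channel genes Scn3b was. None of 22 cadherins, 57 clustered protocadherins or 44 glutamate, GABA and glycine receptor subunits was.

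The counts for clustered gene families are likewise read against the 1.85% of all protein-coding genes, and none is called apart from it. All 16 olfactory receptor genes in the bins (of 1097, 1.46%) came from chromosome 9, with 8 in a 0.2-Mb stretch at 38200001 to 38400000 (Olfr893, Olfr894, Olfr143, Olfr895, Olfr25 and Olfr898 among them) and 8 in another at 39800001 to 40000000. The same list had 156 genes among the 4-cell gains. None of 347 vomeronasal receptor genes was in the bins, although 40 were among the 4-cell gains, and the same held for keratin genes (0 of 109, with 10 gains) and UDP glucuronosyl- and sulfotransferase genes (0 of 43, with 10 gains). Serpin genes numbered 3 of 62, all of the Serpinb6 group in 1 stretch, zinc finger genes 9 of 402 (among them Zfp287 and Zfp286 in a single bin), proteasome genes 2 of 47 (Psme4, Psmg4) and cytochrome P450 genes 1 of 98 (Cyp2b10). Prl5a1 and Ctso were 2 of 60 prolactin, Psg and cathepsin genes, H2ac1 and H2bc1, a testis-expressed histone pair, 2 of 67 clustered histone genes, Ndufs4 1 of 34 complex I genes and Mcm4, a subunit of the replicative helicase, 1 of 31 replication factors.

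Of the 5 stretches with the most genes, those on chromosomes 3, 6 and 13 held clustered gene families. On chromosome 3 (92200001 to 92600000), 16 protein-coding genes lay in 0.4 Mb, among them Sprr2a2, Sprr2a1, Smcp, Sprr2a3 and Ivl. The Sprr genes code for small proline-rich proteins of the epidermal cornified envelope. All 14 Sprr genes of the annotation were in this stretch, whereas the 21 Lce genes beside them, which serve the same structure, were LAD in siRif1 4-cell and siControl 8-cell embryos, and Lor on the other side was LAD in the siRif1 lists of both stages. One siRif1 4-cell LAD of 1.4 Mb ran from Lor past the Sprr and Lce genes to Flg, and of these the Sprr genes were outside LADs in both 8-cell lists. A single bin of the same chromosome (90600001 to 90700000) held 6 of the 15 S100a genes, S100a8 and S100a9 included. Another 16 genes lay in 0.3 Mb of chromosome 9 (50500001 to 50800000), among them Dixdc1, the cytokine gene Il18, the pyruvate dehydrogenase subunit gene Dlat, Bco2 and Nkapd1. This stretch had bins that were LAD in both 4-cell lists on each side. On chromosome 6 (85600001 to 86200000) 13 genes included Alms1, Add2, Dusp11, Tprkb and Nat8f4, and 8 of the 9 Nat8 acetyltransferase genes. The remaining 2 of these stretches held 9 genes each, on chromosome 13 at 33700001 to 34200000 (Serpinb6a, Bphl, Ripk1, Serpinb6c, Nqo2) and on chromosome 16 at 15500001 to 16400000, which is also among the longest. The stretch on chromosome 6 also held Figla, a factor of oocyte-specific transcription, and 2 other genes of germ cells, Dazl on chromosome 17 and Zar1 on chromosome 5, were likewise LAD in siRif1 4-cell embryos alone. The families, their neighbours and these 3 genes were chosen after their values were seen.

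The longest stretches were mostly gene-poor pieces of long siRif1 4-cell LADs. The longest spanned 1.3 Mb of chromosome 15 (53400001 to 54700000) and held Samd12, Colec10, Mal2 and Tnfrsf11b, the gene for osteoprotegerin. It lay in a LAD of 2.7 Mb in siRif1 4-cell embryos. The second, 1.1 Mb of chromosome 11 (38200001 to 39300000), and 1.0 Mb of chromosome 10 (37700001 to 38700000) held no protein-coding midpoint. A stretch of 1.0 Mb on chromosome 11 (44200001 to 45200000) held Ebf1, a factor of B cell development, with Rnf145, Ublcp1 and Il12b. Other stretches among the 15 longest held Mecom, Atxn1 with Gmpr and Mylip, Ptprg with Cadps and the forebrain regulator Fezf2, Spidr with Prkdc, Pkp2 and Dnm1l, Zfp804a, the nuclear receptor gene Nr2f2, and Cadm1 with Nxpe4. In the plot of 4 of the longest stretches, siRif1 4-cell LADs ran across each of them, and LADs of the other lists ended at a border or lay farther off.

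**Figure D1:**
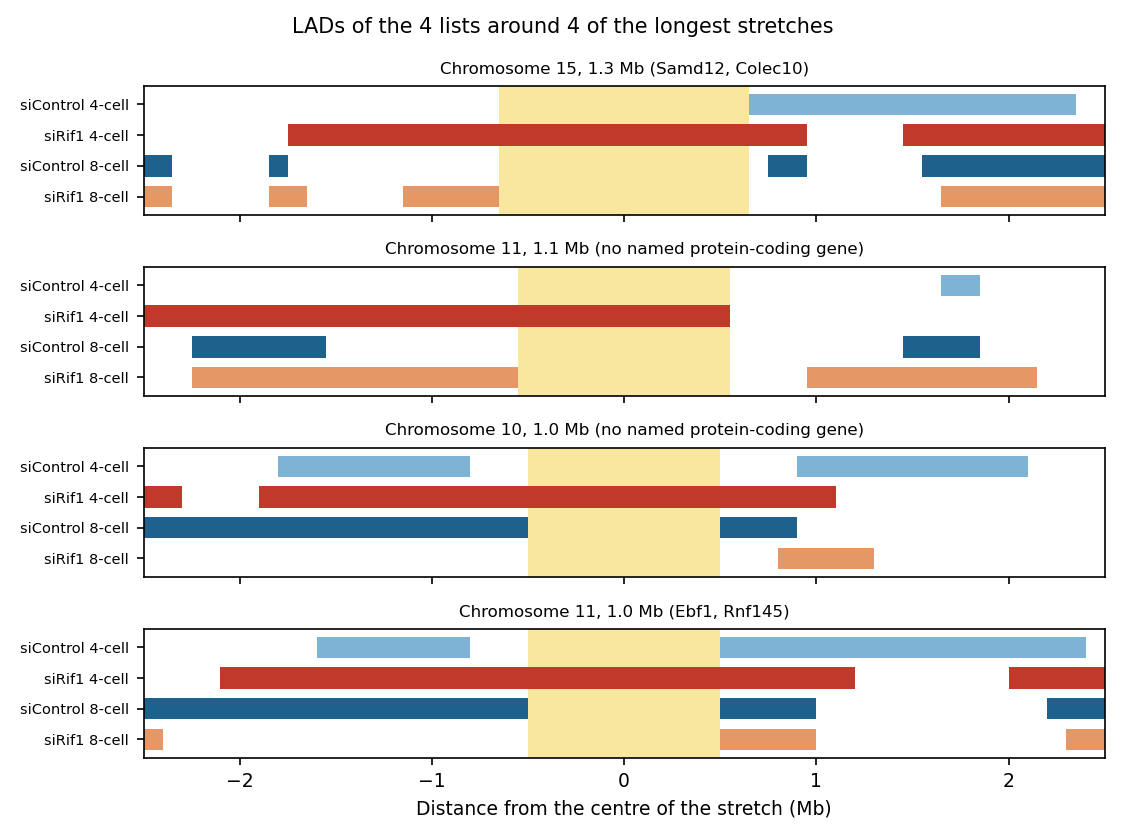
LADs of the 4 lists within 2.5 Mb on either side of the centre of 4 of the longest stretches; the horizontal axis is the distance from the centre in Mb, coloured bars are LADs and the shaded band is the stretch. Bands are 1.3 to 1.0 Mb long and hold a LAD of siRif1 4-cell embryos only, as the rule requires.

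One stretch of 0.8 Mb on chromosome 16 (77100001 to 77900000) held no midpoint of a protein-coding gene but 3 microRNA genes and the lncRNA gene Mir99ahg, which in this annotation ends before them. These microRNAs were chosen after their position was seen. Their mature 5p forms (RefSeq, GRCm38.p6) follow, with the seed, bases 2 to 8, in capitals.
mmu-miR-99a-5p: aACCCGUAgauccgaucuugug
mmu-let-7c-5p: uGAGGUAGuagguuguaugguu
mmu-miR-125b-5p: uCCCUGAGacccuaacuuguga
The 3 seeds differ from each other. let-7 and miR-125 are the microRNAs known to target Lin28 and to accompany differentiation. The bins on both sides of the stretch were LAD in both 4-cell lists, so the microRNA cluster lay in a gap between siControl 4-cell LADs. In all, 15 of 1103 annotated microRNA genes (1.36%) had their midpoint in these bins, compared with 1.85% of protein-coding genes and 2.87% of lncRNA genes.

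The bins were a minor part of what was LAD in siRif1 4-cell embryos. They made up 7.52% of the 10384 siRif1 4-cell LAD bins and 3.27% of the span, which is also the percent called by the rule. Of the 4080 bins gained by siRif1 LADs over siControl LADs at the 4-cell stage (percent called 17.1%), 781 (19.1%) were outside LADs in both 8-cell lists. A further 1961 (48.1%) were LAD in both 8-cell lists, 703 (17.2%) in siControl 8-cell alone and 635 (15.6%) in siRif1 8-cell alone. The change in the other direction, out of LADs in siRif1 4-cell embryos, covered 1553 bins (percent called 6.51%). Taken alone, the comparison with siControl 8-cell LADs would have given 2467 bins (percent called 10.3%) and that with siRif1 8-cell LADs 3249 (percent called 13.6%). Between the 8-cell lists, 2730 bins were in siRif1 LADs and outside siControl LADs (percent called 11.4%). The lists of the other groups had similar or larger numbers of bins to themselves: 786 for siControl 4-cell, 1030 for siControl 8-cell and 1454 for siRif1 8-cell embryos. With no replicate lists, none of these numbers has a spread.

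Most stretches were short. Their median length was 0.2 Mb (quartiles 0.1 and 0.4 Mb), 99 of 270 were a single bin, and 53 stretches of at least 500 kb held 354 of the 781 bins (45.3%). Bins LAD in siControl 4-cell embryos alone formed 215 stretches with a median of 0.3 Mb and a maximum of 2.8 Mb. The stretches lay in 220 of the 644 siRif1 4-cell LADs. In 182 cases the stretch was at one end of its LAD, in 61 it was bounded by siRif1 4-cell LAD bins on both sides, and in 27 the LAD consisted of these bins alone. Those 27 whole LADs were 4.19% of the list and held 10.9% of the bins. The corresponding whole LADs numbered 41 of 601 in siControl 4-cell, 63 of 746 in siControl 8-cell and 84 of 738 in siRif1 8-cell embryos, and held 20.7%, 22.3% and 17.1% of the bins that were LAD in that list alone. Of the 781 bins, 228 (29.2%) were the first or last bin of a siRif1 4-cell LAD. The share was 20.0% for bins LAD in both 4-cell lists only, 15.2% for the 4-cell gains that were LAD at the 8-cell stage and 5.47% for bins LAD in all 4 lists. Since the rule leaves out bins that were LAD in the other lists, these shares follow in part from it and are a description.

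Stretches adjoined 8-cell LADs in more cases than siControl 4-cell LADs. A siControl 4-cell LAD adjoined 94 of the 270 stretches (34.8%), at one end in 89 (240 bins, 30.7%) and at both in 5 (30 bins), and 72 stretches were more than 1 Mb from the nearest. By comparison, 145 (53.7%) adjoined a siControl 8-cell LAD and 132 (48.9%) a siRif1 8-cell LAD. These counts rank as the coverage of the span does: 32.9% in siControl 4-cell, 44.7% in siControl 8-cell and 42.9% in siRif1 8-cell embryos. How far coverage sets the counts was not tested. Of the 536 flanking bins, 304 (56.7%) were LAD in siRif1 4-cell embryos, 225 (42.0%) in no list, and only 7 were LAD in another list while outside siRif1 4-cell LADs. At 100 kb from the border 18.5% of flanking bins were in siControl 4-cell LADs, 29.7% in siControl 8-cell and 25.7% in siRif1 8-cell LADs. At 2 Mb the shares were 32.3%, 40.2% and 38.7%, within 5 percentage points of each list's coverage of the span, and siRif1 4-cell LADs held 44.4%. Since LADs are continuous and these lists set the borders, the low shares next to the stretches follow in part from the rule and are a description.

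**Figure D2:**
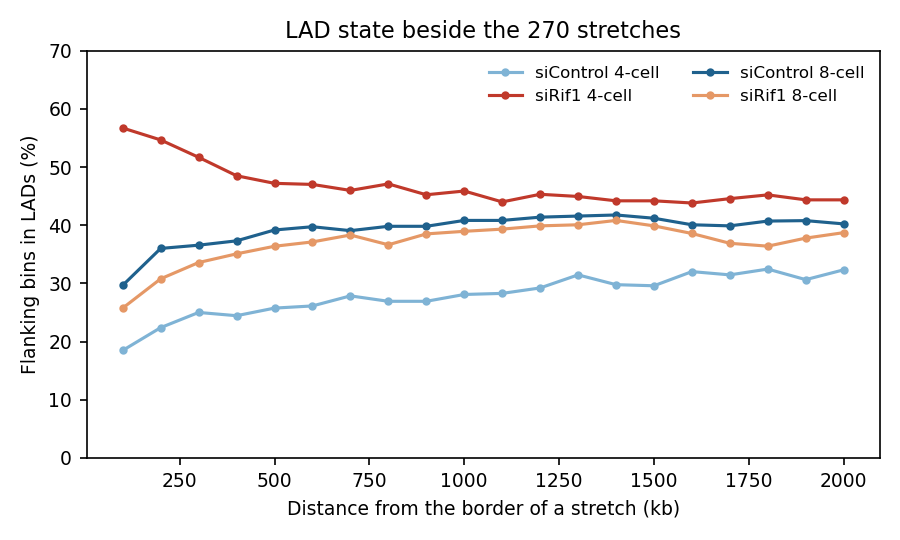
Percent of bins in LADs of each list, by distance in kb from the borders of the 270 stretches (532 to 536 flanks at each distance); lines join the 4 groups' values. siRif1 4-cell falls from 56.7% at 100 kb to 44.4% at 2 Mb, and siControl 4-cell rises from 18.5% to 32.3%.

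A small set stood far from the LADs of every other list. In 25 stretches (80 bins) no other list had a LAD in the next bin, and 12 stretches were more than 500 kb from all of them. The largest of these was the 0.9-Mb LAD of chromosome 13 (45000001 to 45900000) around Atxn1, the gene mutated in a spinocerebellar ataxia, which was 1.2 Mb from the nearest siControl 4-cell LAD and 1.4 Mb from the nearest LAD of each 8-cell list. Atxn1 had 84.3% of its length in siRif1 4-cell LADs and 0% in the others. The most distant was a 0.4-Mb LAD at 121400001 to 121800000 of chromosome 11, the end of the span there, with Tbcd, B3gntl1, Fn3k, Metrnl, Fn3krp and Zfp750, at 3.4 Mb, 8.2 Mb and 6.9 Mb from siControl 4-cell, siControl 8-cell and siRif1 8-cell LADs. One of 0.6 Mb on chromosome 13 (23900001 to 24500000) held Carmil1, Cmah, Scgn, Slc17a4, H2ac1 and H2bc1. The genes of the chromosome 11 LAD and of the latter chromosome 13 LAD, other than the histone pair, were chosen after their values were seen.

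The bins were spread unevenly over chromosomes. They made up a mean of 3.28% ± 1.77 of the span (SD over 19 chromosomes, which are not replicates), from 0.657% on chromosome 17 to 6.33% on chromosome 3. Chromosome 3 had 99 bins, and the 5 chromosomes with the most held 44.6% of all. As a share of each chromosome's 4-cell gains they ranged from 6.75% on chromosome 4 to 28.4% on chromosome 15. On chromosomes 17 and 18 the balance was the other way, with 5.04% and 8.37% of bins LAD in siControl 4-cell alone against 0.657% and 2.87% in siRif1 4-cell alone. The share LAD in siRif1 alone was the higher of the 2 on 11 of 19 chromosomes.

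**Figure D3:**
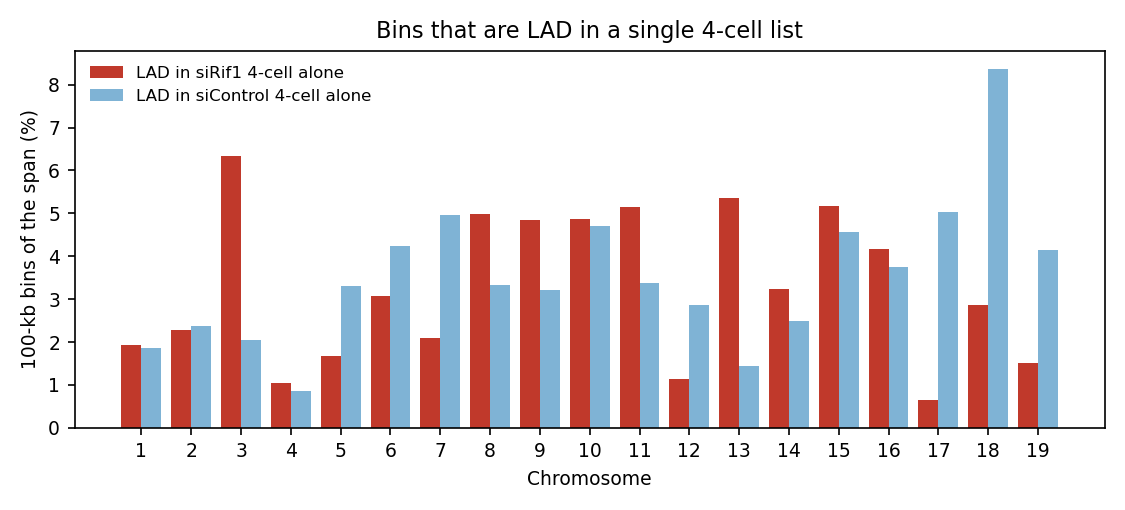
Percent of each chromosome's 100-kb bins that were LAD in siRif1 4-cell embryos alone (red) or in siControl 4-cell embryos alone (blue), from 1 pooled list per group. The red bars run from 0.657% on chromosome 17 to 6.33% on chromosome 3.

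Along the chromosome the bins lay toward the centromere, which in mouse is at the start of each chromosome. When the span was cut at its middle, 573 of the 781 bins (73.4%) were in the centromere-side part, and this part held more than 50% on 15 of 19 chromosomes (mean 71.0% ± 20.3, SD over chromosomes). Chromosomes 6, 12 and 16 had more of them in the distal part and chromosome 19 had 4 in each. When the span was cut into 10 equal parts, 4.79%, 5.91%, 4.95% and 4.78% of the bins of the 4 parts nearest the centromere were LAD in siRif1 4-cell alone, compared with 0.881% and 1.30% in the 2 farthest. Bins LAD in a single other list were more even, with 51.8% of those of siControl 4-cell, 54.8% of siControl 8-cell and 51.9% of siRif1 8-cell embryos on the centromere side. Of the 4-cell gains that were LAD at the 8-cell stage 58.7% lay there, and of all siRif1 4-cell LAD bins 49.4%. siControl 4-cell LADs, which the rule excludes, had 43.4% of their bins there. The extent to which the position of the 3 excluded lists sets that of the bins was not tested.

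**Figure D4:**
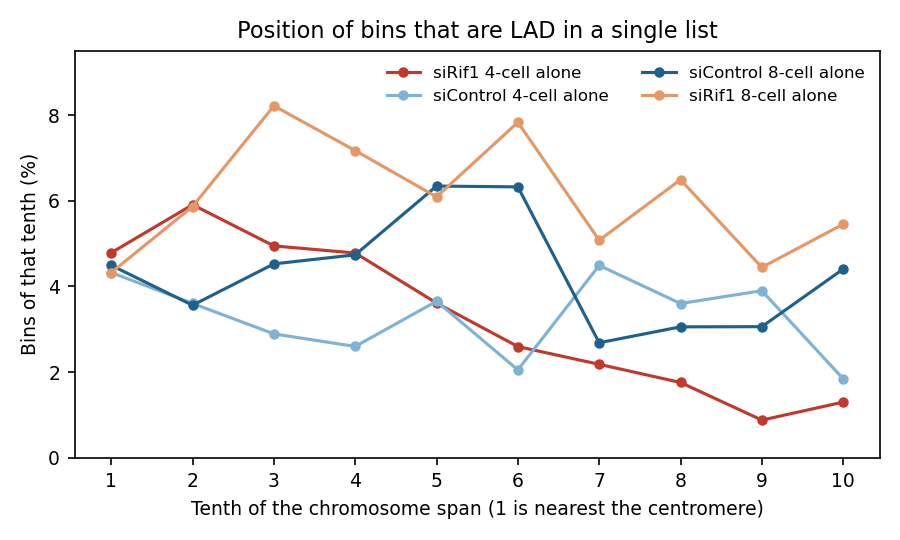
Percent of the bins in each of 10 equal parts of the chromosome span, pooled over 19 chromosomes, that were LAD in 1 list alone; part 1 is nearest the centromere and each line is 1 group. The siRif1 4-cell line falls from 5.91% in part 2 to 0.881% in part 9.

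The bins were about as poor in genes as those LAD in all 4 lists. They held 4.78 protein-coding genes per Mb, compared with 8.45 over the span, 4.76 in bins LAD in all 4 lists, 3.37 in 4-cell gains that were LAD at the 8-cell stage and 14.0 in bins LAD in none. Bins LAD in siControl 4-cell embryos alone, of almost the same total length (78.6 Mb), held 12.7 genes per Mb. By chromosome the density was 4.64 ± 1.66 for siRif1 4-cell alone and 12.6 ± 4.15 for siControl 4-cell alone (SD over 19 chromosomes), lower for siRif1 on all 19. It was above that of the gains that were LAD at the 8-cell stage (3.31 ± 1.81) on 14 of 19 chromosomes. The 2 sets of bins that were LAD in a single 4-cell list thus differed in gene density by more than the spread between chromosomes, whereas those of the 8-cell stage, at 7.35 (siControl) and 5.34 (siRif1), were closer together.

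**Figure D5:**
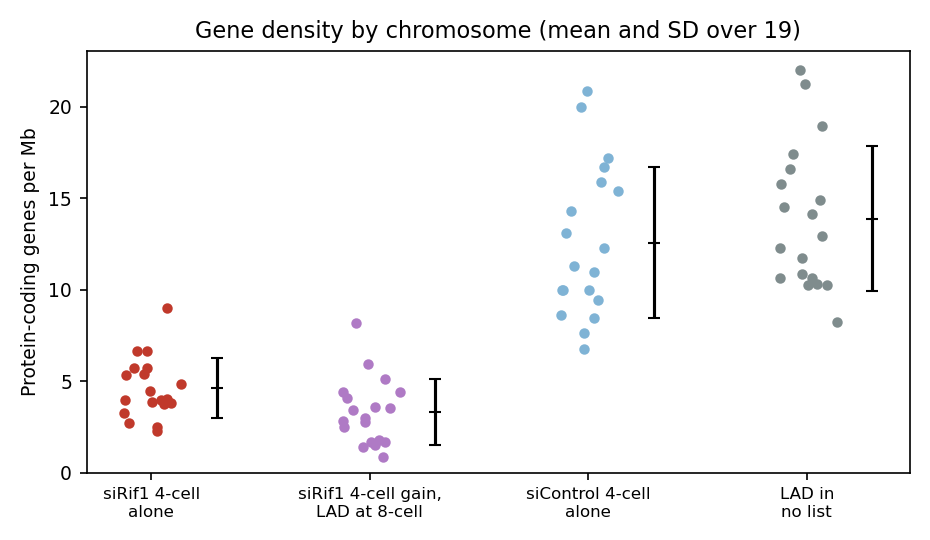
Protein-coding genes per Mb on each of 19 chromosomes (points) for 4 sets of bins, with the mean and SD over chromosomes as a bar. Means are 4.64 for siRif1 4-cell alone, 3.31 for gains that were LAD at the 8-cell stage, 12.6 for siControl 4-cell alone and 13.9 for bins LAD in no list.

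Of the 781 bins, 332 (42.5%) were free of any protein-coding gene body, against 35.2% of the span and 13.1% of the bins LAD in siControl 4-cell alone. The share was higher, at 56.7%, in the 4-cell gains that were LAD at the 8-cell stage. It was 41.8% in bins LAD in siControl 8-cell alone and 59.3% in those of siRif1 8-cell alone. Genes in the bins had a median length of 22.9 kb, compared with 17.8 kb over the span, and 308 of the 373 lay wholly in such bins. The median was also 22.9 kb in bins LAD in siControl 4-cell alone and 27.7 kb in bins LAD in all 4 lists. It was 18.4 kb in the 4-cell gains that were LAD at the 8-cell stage. The length is thus not particular to these bins. The 10 longest were Sntg1, Nlgn1, Etl4, Ptprg, Ank2, Mecom, Sorcs1, Elmo1, Samd12 and Utrn. They ranged from 942 kb (Sntg1) to 488 kb (Utrn, the gene for utrophin), and several ran beyond the bins into LADs of other lists. Ptprg, a receptor phosphatase gene, had 100% in siRif1 4-cell LADs, 35.8% in siRif1 8-cell LADs and 0% in both siControl lists. Etl4 had 55.6% in siControl 4-cell, 100% in siRif1 4-cell, 43.3% in siControl 8-cell and 32.2% in siRif1 8-cell LADs. Samd12 had 100% in siRif1 4-cell and 0.176% in siRif1 8-cell LADs, with 0% in the siControl lists. Sntg1 had 32.0% in siControl 4-cell, 53.3% in siRif1 4-cell, 32.0% in siControl 8-cell and 0% in siRif1 8-cell LADs. Ank2, the gene for the neuronal and cardiac membrane adaptor ankyrin-B, had 13.5%, 82.7%, 48.1% and 48.1% of its length in LADs of those lists in the same order. Sorcs1, Elmo1 and Utrn had 0% in siControl 4-cell LADs and 85.2%, 59.5% and 65.2% in siRif1 4-cell LADs. At the 8-cell stage these 3 differed: Elmo1 had 40.2% in siRif1 and 0% in siControl LADs, whereas Sorcs1 (29.2%) and Utrn (44.7%) were partly in siControl and not in siRif1 LADs.

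Promoters of genes in the bins were intermediate in CpG content. The median ratio of observed to expected CpG over the 250 bases before and 50 after the start was 0.551 (282 promoters), compared with 0.275 for the gains that were LAD at the 8-cell stage (882 promoters), 0.732 for siControl 4-cell alone (771) and 0.595 over the span (16123). Their median G and C content was 55.3%, against 47.7% in those gains and 59.7% in siControl 4-cell alone. Of the 282 genes with a promoter sequence, 257 had the start itself in one of the bins, 12 in a bin LAD in no list and 13 in a bin that was LAD in another combination of lists.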

How the data were processed

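Lamin B1 DamID was done on 12 samples in 4 groups. Trimmomatic, Bowtie2, SAMtools, Picard and the build mm10 (GRCm38) are named, per the submitters' processing notes, without a version. The authors deposited 1 LAD list per group from all replicates, with starts and ends on a 100-kb grid and a score of 0 throughout, which was not used. How LADs were called, with which threshold and with what use of Dam alone, is not given in the sources used here, and a threshold that moves with depth would change which bins are called. Depth is unknown, so no interval is given.

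Coordinates are 1-based. Bins were classed in Python 3.11.15 with pandas 2.3.3, and the classing was tested on simulated lists. Genes came from RefSeq (GRCm38.p6), leaving out 333 of 47042 entries with scaffold coordinates, and were placed by midpoint. Each promoter is that of the most upstream start in the RefSeq promoter table. The X chromosome was not analysed here. A genome sequence was not used here, so base content was computed for promoters only.

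The regions and the 41 gene lists were chosen with earlier results of these data known. Named genes are up to 4 of each of the 15 longest stretches, those of lists of at most 50 genes, up to 6 of the fullest stretch of larger lists, the 10 longest genes, up to 5 of each of the 5 stretches with most genes, Rif1 and Lmnb1. One gene that this rule names is not reported here. Pooled lists allow no test, and no label says that replicates came from separate collections of embryos.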

Additional observations from a re-analysis of the deposited data

How the results depend on the processing

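Removing LADs under 300 kb from all lists or bridging gaps of up to 200 kb left 785 and 782 bins with 379 and 373 genes. Keeping only bins at least 100 kb from the LADs of the 3 other lists gave 482 bins (4.64% of siRif1 4-cell LAD bins) and 211 genes, and by construction 0% of bins in stretches that extend a siControl 4-cell LAD at one end, against 30.7%. Stretches of at least 300 kb gave 576 bins, a share of 5.55%, 237 genes, no olfactory receptor gene and 78.0% of bins on the centromere side. Ignoring the state in siRif1 8-cell LADs gave 1416 bins (13.6%), 571 genes and 36.2% of bins in such extensions; ignoring siControl 8-cell LADs gave 1484 (14.3%), 638 and 42.0%. Gene density stayed between 4.03 and 4.83 per Mb under these settings, below that of bins LAD in siControl 4-cell alone (12.1 to 12.8, of which the LAD length and gap settings were the only ones that apply). Genes placed by any overlap numbered 483 and wholly inside 308. Placed by transcription start they numbered 296, counted only among genes with a promoter sequence. Of the genes with a promoter sequence, 282 were in the bins by midpoint, so 296 is not to be set against 373. Without 1 chromosome at a time the bins ranged from 682 to 775 and the genes from 320 to 370, and without chromosome 9 the olfactory receptor genes fell from 16 to 0. The centromere-side share and the siControl density were added after the data were examined. GC and GATC density of whole bins were not run, since a genome sequence was not used here. No paired analysis was possible because each group has 1 pooled list. Replicates could not be left out, and the deposited lists do not show read depth.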
